A study of Rattus norvegicus with 10 samples.

Results

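The genes of the transforming growth factor beta (TGF-beta) and bone morphogenetic protein (BMP) pathways were examined in the kidneys of fetal rats on gestation day 22, close to birth. The members were the probe sets whose single gene symbol in the platform annotation matched a fixed set of family names, which does not take in every gene of these pathways: ligands and latency proteins, receptors, activin and inhibin subunits, secreted antagonists, Smads and Id genes. This gave 49 of the 10412 genes that the annotation names, measured by 68 of 15923 probe sets. Of these, 41 probe sets of 33 genes passed a filter on low signal and were tested with the rest of the array, while 27 probe sets lay below it. The 16 genes with every probe set below the filter were Tgfb2, Ltbp2, Bmp6, Gdf9, Gdf10, Gdf15, Bmpr2, Acvr1c, Acvr2b, Inhba, Inhbb, Inhbc, Inhbe, Fstl3, Nbl1 and Smad9. All 68 probe sets matched the RefSeq gene table by Entrez identifier, and 0 of them mapped to the X chromosome.

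Samples of the hyperinsulinemic group (replicates 6 to 10) came from growth-restricted fetuses of Wistar mothers that carried slow-release insulin, as a 2 mm piece of implant placed subcutaneously before mating and again after it, on a normal diet. Samples of the normal group (replicates 1 to 5) came from fetuses of mothers on a regular diet with no implant named in the labels; the labels do not give their strain. Each group had 5 samples of total RNA, each on its own 1-colour Affymetrix array, whose MAS5 signals (linear, 1 per probe set) are given below. The treatment was given to the mother, and the labels name no dose, litter or fetal sex, and no pooling.

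TGF-beta family ligands are secreted dimers that bind pairs of serine/threonine kinase receptors. TGF-beta itself is released as a latent complex that latent TGF-beta binding proteins (Ltbp) tether to the extracellular matrix. Activated receptors phosphorylate Smad2 and Smad3 for TGF-beta and activin, or Smad1, Smad5 and Smad9 for BMPs. These Smads join Smad4 and enter the nucleus with it. Smad6 and Smad7 are inhibitory, and the Id genes are direct targets of BMP signalling. In the developing kidney, BMP and GDF signals act in ureteric branching and nephron formation, and TGF-beta is best known in the kidney for driving matrix deposition.

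The Id genes and Bmp6 are those on which the results below turn, and their promoters are shown from 250 bases before to 50 bases after the RefSeq start site, 5′ to 3′ on the strand of the gene (RefSeq, GRCr8). Capitals mark CAGAC, a short motif bound by Smads (searched on both strands, so also as GTCTG), and GGCGCC, a GC-rich motif of BMP-responsive elements (its own reverse complement); the motifs do not overlap here.
Id1 (chr3:161671314-161671613, plus strand): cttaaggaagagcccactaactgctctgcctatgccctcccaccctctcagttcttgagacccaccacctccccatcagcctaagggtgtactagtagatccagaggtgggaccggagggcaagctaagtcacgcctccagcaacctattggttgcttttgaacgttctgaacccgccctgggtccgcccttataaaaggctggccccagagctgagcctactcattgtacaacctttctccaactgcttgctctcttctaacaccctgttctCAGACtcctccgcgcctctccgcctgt
Id2 (chr6:47470946-47471245, minus strand): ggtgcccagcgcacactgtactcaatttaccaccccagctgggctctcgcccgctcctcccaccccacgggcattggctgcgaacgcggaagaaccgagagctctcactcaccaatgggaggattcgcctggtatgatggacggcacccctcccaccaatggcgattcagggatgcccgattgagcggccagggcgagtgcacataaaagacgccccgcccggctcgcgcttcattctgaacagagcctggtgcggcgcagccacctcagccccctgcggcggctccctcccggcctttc
Id3 (chr5:153656041-153656340, plus strand): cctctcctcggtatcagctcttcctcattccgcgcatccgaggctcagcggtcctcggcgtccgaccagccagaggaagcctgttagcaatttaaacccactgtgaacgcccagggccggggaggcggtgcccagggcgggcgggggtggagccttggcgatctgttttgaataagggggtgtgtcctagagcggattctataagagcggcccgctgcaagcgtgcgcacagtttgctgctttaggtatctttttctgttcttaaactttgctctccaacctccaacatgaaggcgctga
Id4 (chr17:16598244-16598543, minus strand): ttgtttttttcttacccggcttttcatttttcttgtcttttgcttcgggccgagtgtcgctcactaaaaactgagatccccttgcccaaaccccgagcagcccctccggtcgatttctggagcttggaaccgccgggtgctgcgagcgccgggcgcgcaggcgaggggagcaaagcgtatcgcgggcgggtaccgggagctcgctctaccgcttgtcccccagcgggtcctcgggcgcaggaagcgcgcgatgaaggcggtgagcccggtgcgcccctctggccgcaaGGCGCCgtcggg
Bmp6 (chr17:26675212-26675511, minus strand): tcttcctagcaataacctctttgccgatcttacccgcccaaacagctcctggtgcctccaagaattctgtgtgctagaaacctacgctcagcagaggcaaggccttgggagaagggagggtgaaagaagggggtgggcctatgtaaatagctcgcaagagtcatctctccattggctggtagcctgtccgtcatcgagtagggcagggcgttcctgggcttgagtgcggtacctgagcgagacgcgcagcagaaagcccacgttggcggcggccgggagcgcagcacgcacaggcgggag
The CAGAC motif was found once in the Id1 window, at bases 24 to 28 after the start, and GGCGCC once in the Id4 window, at bases 39 to 44 after the start. Neither motif was found in the windows of Id2, Id3 and Bmp6. Among all 33469 rat promoters of this length, 50.1% held CAGAC on either strand and 11.02% held GGCGCC. Of the 44 member genes with a promoter in the table, 15 held CAGAC and 15 held GGCGCC, or 34.1% each. The GC content of the member windows ran from 30.0% for Bmpr1a to 84.3% for Inhbb, and these shares take no account of base composition. These are matches of letters in a short window.

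Median signal was 135 ± 3.02 on hyperinsulinemic arrays and 135 ± 1.75 on normal arrays (SD, n = 5 each). Hyperinsulinemic replicate 6 stood apart on the first principal component (19.5, against -7.44 to 0.484 elsewhere) and replicate 10 was lowest on the second. Xist, transcribed from an inactive X chromosome, ran from 42.4 to 70.5 on hyperinsulinemic arrays and from 0.8 to 2 on normal arrays. All these Xist values lay below the signal filter (79.2 to 87.6 depending on the array). The labels give no sex, so treatment, Xist level and a possible difference in fetal sex cannot be told apart in any comparison here. Tubule and podocyte markers bore out the labelled tissue: all 7 proximal tubule, 4 collecting duct and 4 podocyte markers on the array were above the filter. The liver transcript Alb was highest in hyperinsulinemic replicate 6 and normal replicate 4 (1741.9 and 842.2), and adrenal transcripts in normal replicate 1, where Cyp11b1 was 155.8 against 2 to 19.6 on the other 9 arrays.

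None of the 41 TGF-beta and BMP pathway probe sets tested differed between hyperinsulinemic and normal kidneys after adjustment, and their measured differences were small. Of the 41 probe sets tested, 0 passed in limma with Benjamini-Hochberg adjustment over all 9601 probe sets tested, where 0.0104% passed; the smallest adjusted p among them was 0.870. At an unadjusted p under 0.05 there was 1 lower probe set, of Id2, and 0 higher ones, against 2.93% lower and 2.44% higher over all probe sets tested. The exact rank test gave 1 of the 41 at an unadjusted p under 0.05, against 3.77%. After adjustment it gave 0, as for all probe sets tested (0%). With 5 against 5 arrays its smallest possible p is 0.00794, too large to pass adjustment over 9601 unless very many probe sets reach it. That 0 therefore carries no weight. In 0 of the 41 were the groups without overlap, against 1.04% of all probe sets tested. The members split evenly: 22 were lower and 19 higher in the hyperinsulinemic group, with a median log2 difference of -0.0055, against 0.0020 over all probe sets tested, of which 49.1% were lower.

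The 95% confidence intervals of the members, each for its own probe set alone, show which differences the spread among these 10 samples allows. The labels do not give separate litters, so the intervals need not bound a difference between groups of mothers. Differences are on the scale of log2(signal + 16), which understates the change of dim probe sets, and values after ± are standard errors for differences and SDs for signals. Individual differences ran from -0.31 for Id2 to 0.20 for Grem1, with a median standard error of 0.087. For all 41 the interval lay within a 1.5-fold change of signal + 16 in either direction (0.58 on the log2 scale). The outer bounds were -0.53 for Id2 and 0.54 for Grem1. As a fold of the signal itself the bounds are wider, most of all for dim members such as Grem1 and Tgfb1. The same held for 98.5% of all probe sets tested. Each array measured RNA of a kidney sample with mixed cell types, so that fewer cells of a type and less RNA per cell cannot be told apart.

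**Figure D1:**
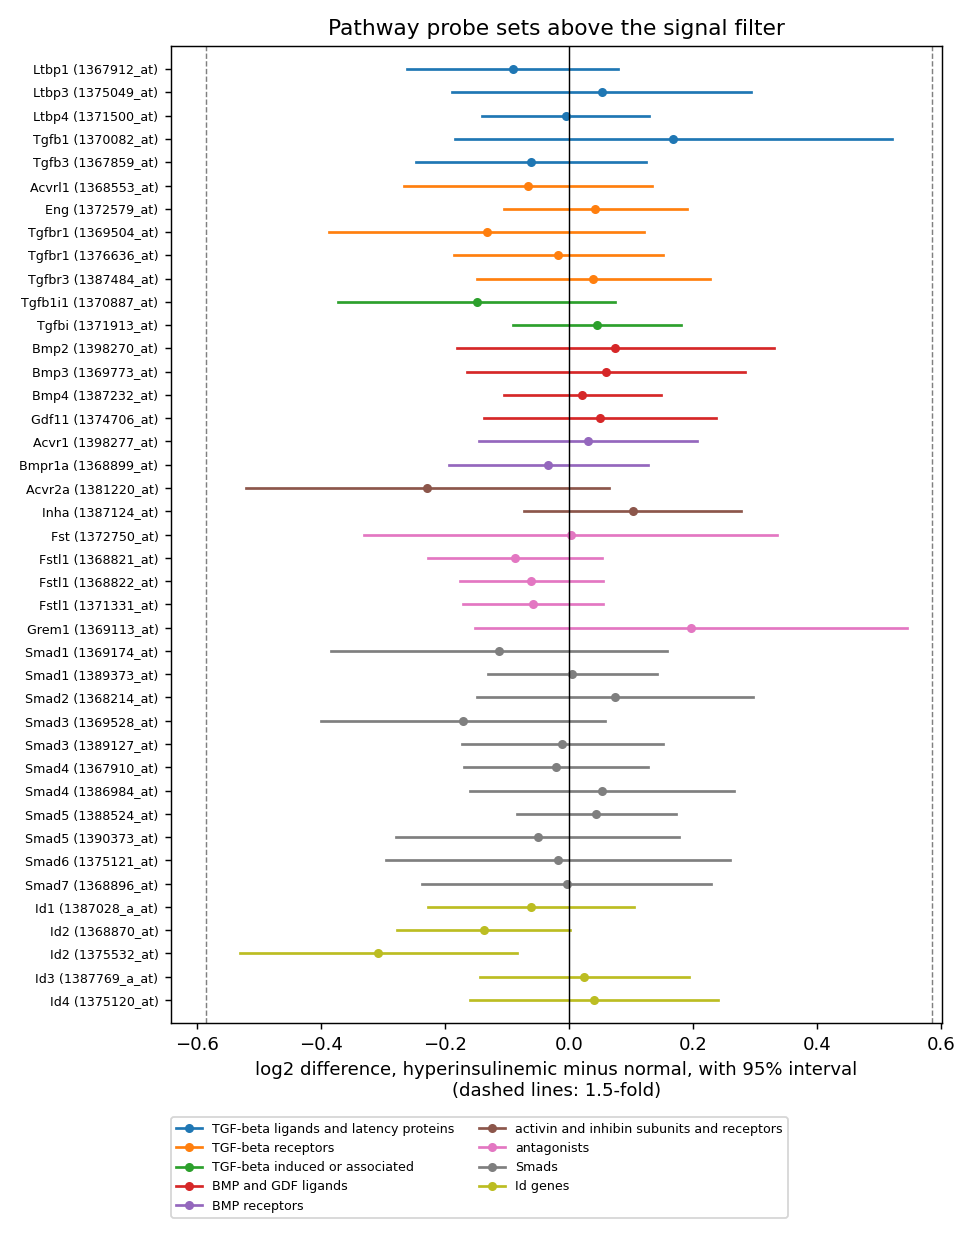
Log2 difference (hyperinsulinemic minus normal, horizontal axis) with its 95% confidence interval from limma for the 41 pathway probe sets above the signal filter, coloured by role, with 5 arrays per group and dashed lines at 1.5-fold. Every interval lies between the dashed lines, and 1 of the 2 Id2 intervals, from -0.53 to -0.08, does not reach 0.

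Among the TGF-beta ligands and their latency proteins, 5 of 8 probe sets were tested, 3 of them lower and 2 higher, with a median difference of -0.0055. Ltbp4, a latency protein of elastic tissue, had signals of 898.2, 881.3, 882.1, 1005.3 and 984.7 on hyperinsulinemic arrays 6 to 10, against 839.4, 1006.7, 896, 987.6 and 942.6 on normal arrays 1 to 5. The groups covered the same range, and the difference was -0.01 ± 0.06 (limma, adjusted p = 0.998). Tgfb1, the ligand most tied to fibrosis, averaged 91.6 ± 12.5 in hyperinsulinemic and 82.3 ± 25.6 in normal kidneys (SD, n = 5 each). Hyperinsulinemic replicate 6 was highest of its group at 113.7, while normal arrays were spread from 45.4 to 112.3. Tgfb3 averaged 146 ± 10.8 in hyperinsulinemic and 154 ± 17.6 in normal kidneys. Of the latency proteins, Ltbp1 averaged 315 ± 36.3 in hyperinsulinemic and 335 ± 15.2 in normal kidneys, and Ltbp3 304 ± 39.2 and 294 ± 45.6 in the same order. Both Tgfb2 probe sets were below the filter on every array.

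The TGF-beta receptors were as close. Tgfbr1, the kinase that phosphorylates Smad2 and Smad3, stood at 482.7, 645.3, 563.8, 560.1 and 473.9 on hyperinsulinemic arrays, against 578, 524.2, 560.8, 562.4 and 518.6 on normal arrays. Hyperinsulinemic arrays held both the highest and the lowest values, and the difference was -0.02 ± 0.08 (limma, adjusted p = 0.992). Its other probe set, at 87.3 ± 16.8 in hyperinsulinemic and 96.5 ± 11.6 in normal kidneys, differed by -0.13 ± 0.12. Eng, an endothelial co-receptor, averaged 308 ± 13.6 in hyperinsulinemic and 299 ± 28.1 in normal kidneys, and Acvrl1, the endothelial kinase it works with, 148 ± 17.5 and 155 ± 15.9 in the same order. The co-receptor Tgfbr3 had 1 tested probe set, at 114 ± 13.5 in hyperinsulinemic and 110 ± 3.98 in normal kidneys. Tgfbi, a TGF-beta induced matrix protein, had signals of 613.2, 621, 539.7, 680.7 and 660.2 on hyperinsulinemic arrays, against 578.1, 618.2, 619, 599.7 and 593 on normal arrays. Its hyperinsulinemic values were the more scattered and enclosed all normal ones, and the difference was 0.05 ± 0.06 (limma, adjusted p = 0.974). Tgfb1i1, a focal adhesion adaptor also called Hic-5, averaged 529 ± 83.7 in hyperinsulinemic and 586 ± 77.1 in normal kidneys.

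Of 11 probe sets of BMP and GDF ligands 4 were tested, and all 4 lay slightly higher, by 0.02 to 0.07. Bmp4, a ligand made by stroma around the ureteric tree, was 328.4, 327.6, 304.1, 310.4 and 320.7 on hyperinsulinemic arrays, against 293.2, 314.7, 335.1, 323.1 and 301.2 on normal arrays. The hyperinsulinemic values lay inside the normal range, and the difference of 0.02 ± 0.06 did not pass (limma, adjusted p = 0.987). Bmp2 averaged 136 ± 25.1 in hyperinsulinemic and 127 ± 16.3 in normal kidneys, Bmp3 125 ± 14.4 and 119 ± 17.98, and Gdf11, a signal for ureteric budding in mice, 249.8 ± 27.3 and 241 ± 25.2, each in that order.

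Bmp6, a ligand known for hepcidin control, was the 1 member whose groups did not overlap, on 1 of its 2 probe sets and at very low signal. That probe set (1388201_at) gave 14.7, 7.5, 7.2, 15 and 18.8 on hyperinsulinemic arrays, against 27.1, 24.1, 26.5, 20.1 and 34.1 on normal arrays. Every hyperinsulinemic value lay below every normal one, but all lay far below the filter, which was a signal of 79.2 to 87.6 depending on the array. In a fit without the filter the difference was -0.58 ± 0.14 (limma, unadjusted p = 0.00107, adjusted p = 0.548). The other Bmp6 probe set (1388920_at), also below the filter, averaged 63.5 ± 6.66 in hyperinsulinemic and 62.0 ± 10.6 in normal kidneys, a difference of 0.03 ± 0.12, so the probe sets disagreed. Without overlap and with the hyperinsulinemic group lower were 1 of all 68 member probe sets and 0.479% of all probe sets that are not controls. In either direction the count was also 1 of the 68, and the share was 1.04% over the probe sets tested. This probe set was picked from the 68 for its lack of overlap, so the count is no result about Bmp6.

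Bmpr1a and Acvr1 are type I receptors of BMPs. Bmpr1a had signals of 211.5, 205.4, 231.5, 239.8 and 252 on hyperinsulinemic arrays, against 224.6, 220.4, 219.8, 245.5 and 257.9 on normal arrays. The ranges were shifted slightly and overlapped broadly, with a difference of -0.03 ± 0.07 (limma, adjusted p = 0.983). Acvr1 averaged 106 ± 9.999 in hyperinsulinemic and 103 ± 3.80 in normal kidneys.

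Activin and inhibin genes had 2 of 8 probe sets above the filter. Acvr2a, a type II receptor shared by activins and BMPs, was 108.4, 99.2, 163.5, 117.5 and 167.5 on hyperinsulinemic arrays, against 144.4, 160, 191.9, 143.7 and 132.3 on normal arrays. Replicates 6, 7 and 9 lay below every normal array and replicates 8 and 10 among them, and the difference of -0.23 ± 0.14 did not pass (limma, unadjusted p = 0.117, adjusted p = 0.953). It was -0.15 without replicate 7 (limma, unadjusted p = 0.295). It was -0.31 without replicate 8 or without replicate 10 (limma, unadjusted p = 0.0425 and 0.0341, adjusted p = 0.918 and 0.838). Inha, the inhibin alpha subunit, averaged 147 ± 9.46 in hyperinsulinemic and 136 ± 13.3 in normal kidneys.

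Inhba, the activin beta-A subunit, was below the filter and came near to separating the groups. Its signals were 55.4, 44, 58.9, 63.8 and 73.9 on hyperinsulinemic arrays, against 103.9, 77.2, 73.3, 75.2 and 80.4 on normal arrays. Only hyperinsulinemic replicate 10 reached the lowest normal value, and in the fit without the filter the difference was -0.39 ± 0.13 (limma, unadjusted p = 0.00964, adjusted p = 0.881). Its highest value came from normal replicate 1, the array with the adrenal transcripts, and without that array the difference was -0.31 (limma, unadjusted p = 0.0284, adjusted p = 0.9996).

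**Figure D2:**
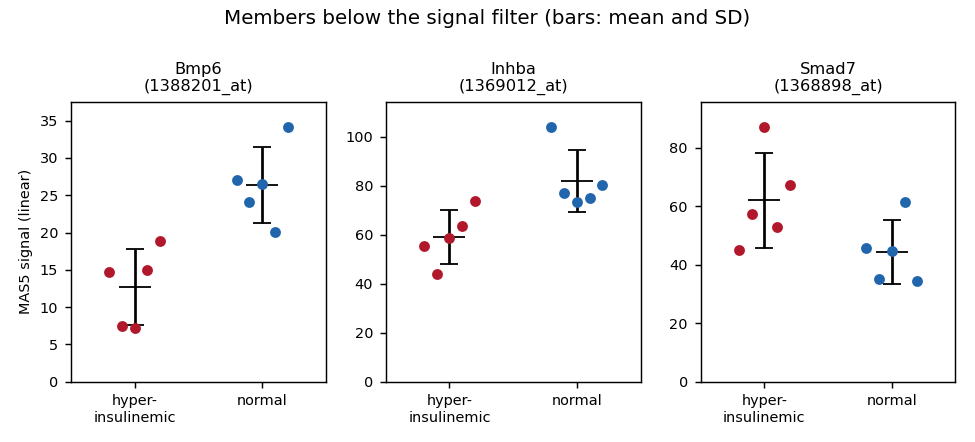
MAS5 signal (vertical axis, linear, from 0) on each array for the 3 probe sets below the filter with an unadjusted p under 0.05 in the fit without a filter, hyperinsulinemic left and normal right; points are arrays, bars the mean and SD of 5. Bmp6 does not overlap between groups, at signals of 7.2 to 34.1, while Inhba and Smad7 overlap.

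Secreted antagonists bind ligands outside the cell. Fstl1, a follistatin-like glycoprotein of mesenchyme, was lower on all 3 of its probe sets, by 0.06 to 0.09, and 0 of the 3 passed. The probe set 1371331_at stood at 2127.6, 2284.1, 2404.4, 2364.6 and 2157 on hyperinsulinemic arrays, against 2387.6, 2353.2, 2433.7, 2445.4 and 2187.8 on normal arrays. Hyperinsulinemic replicates 6 and 10 were low, as was normal replicate 5, and the difference was -0.06 ± 0.05 (limma, adjusted p = 0.973). Fst, which neutralises activin, averaged 118 ± 32.7 in hyperinsulinemic and 114 ± 9.29 in normal kidneys, the larger spread coming from replicate 6 at 65.5. Grem1, a BMP antagonist needed for ureteric outgrowth in mice, ran from 65 to 130.3 on hyperinsulinemic and from 54.9 to 97.7 on normal arrays, and its difference of 0.20 ± 0.16 was the most positive of the members tested.

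Smads had 16 probe sets, of which 11 were tested, 7 lower and 4 higher. Smad5, a mediator of BMP signals, had signals of 762, 719.4, 675.2, 666.4 and 633.4 on hyperinsulinemic arrays, against 641.7, 691.3, 637, 675.2 and 699.7 on normal arrays. The hyperinsulinemic arrays reached both higher and lower, with a difference of 0.04 ± 0.06 (limma, adjusted p = 0.973). Smad4, the common partner, had probe sets of opposite sign, at -0.02 and 0.05; hyperinsulinemic replicate 6 was highest on the second, at 747.8. Among the activin and TGF-beta mediators, Smad2 averaged 305 ± 48.3 in hyperinsulinemic and 288 ± 34.9 in normal kidneys, and Smad3 422 ± 23.5 and 427 ± 47.0 in the same order on 1389127_at. The other Smad3 probe set, 1369528_at, averaged 81.5 ± 11.7 in hyperinsulinemic and 93.6 ± 11.5 in normal kidneys, a difference of -0.17 ± 0.11 (limma, unadjusted p = 0.131, adjusted p = 0.958). Of 7 genes with several tested probe sets, Fstl1, Id2, Smad3 and Tgfbr1 kept 1 direction on all of them, and Smad1, Smad4 and Smad5 did not.

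The inhibitory Smads gave mixed readings. Smad6 averaged 175 ± 31.7 in hyperinsulinemic and 177 ± 32.8 in normal kidneys. Smad7 had 1 tested probe set, at 101 ± 10.5 in hyperinsulinemic and 102 ± 16.4 in normal kidneys. A second (1368898_at), below the filter, read 45.1, 57.5, 87, 52.9 and 67.4 on hyperinsulinemic arrays, against 45.9, 35.2, 44.7, 61.3 and 34.6 on normal arrays. Hyperinsulinemic replicates 8 and 10 lay above every normal array, and the difference without the filter was 0.36 ± 0.16 (limma, unadjusted p = 0.0410, adjusted p = 0.949). The third probe set, also below the filter, averaged 76.6 ± 9.45 in hyperinsulinemic and 73.7 ± 14.5 in normal kidneys.

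Over all 27 probe sets below the filter, 15 were lower and 12 higher in the fit without it, and 0 passed adjustment in limma, against 0.0315% of all probe sets in that fit. At an unadjusted p under 0.05 there were 2 lower (Bmp6 and Inhba) and 1 higher (Smad7), against 2.76% lower and 2.46% higher overall. The 95% interval lay within a 1.5-fold change for 17 of the 27. For the rest, a larger difference is still within the interval.

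**Figure D3:**
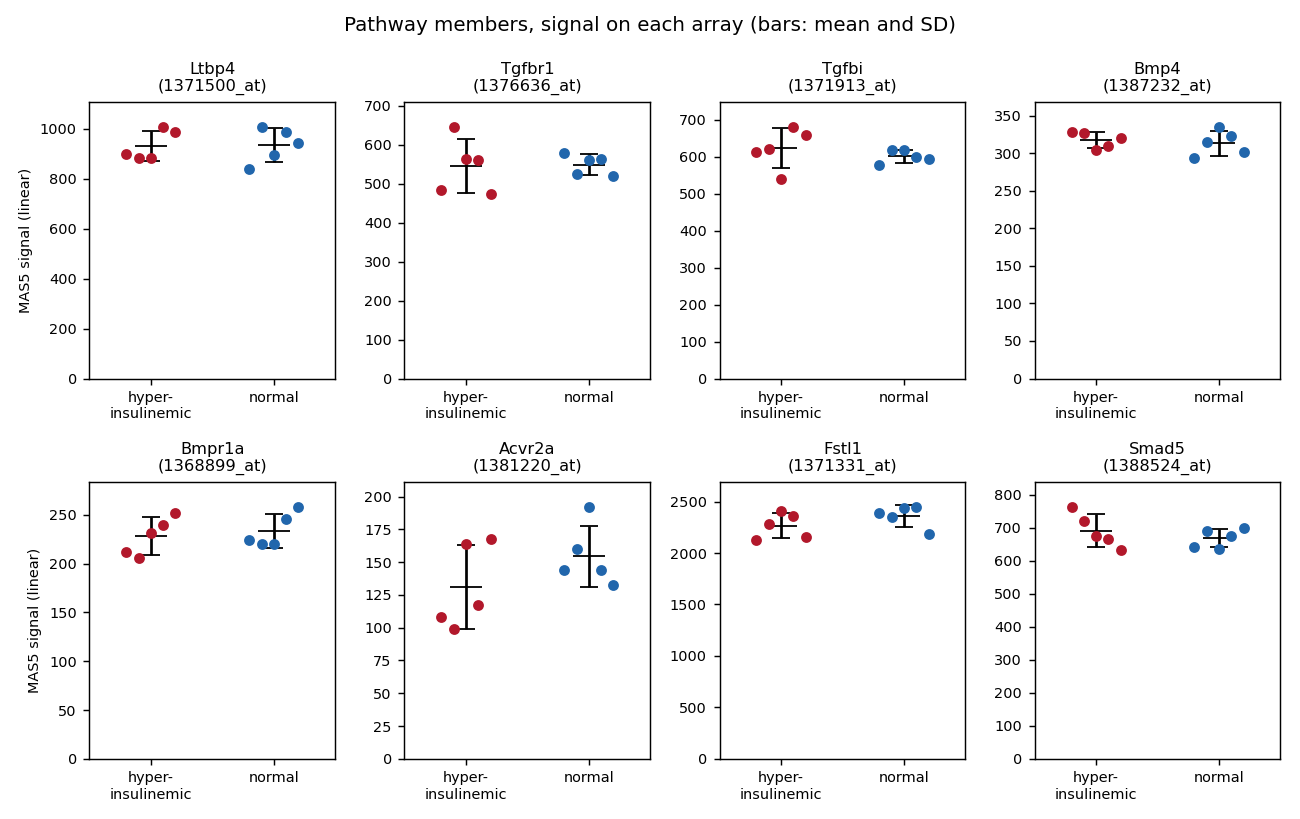
MAS5 signal (vertical axis, linear, from 0) on each array for the probe set with the highest mean signal in each role other than the Id genes, hyperinsulinemic left and normal right; points are arrays, bars the mean and SD of 5. The groups overlap in all 8 panels, and the Acvr2a panel runs from 99.2 to 191.9.

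The Id genes encode dominant-negative partners of basic helix-loop-helix factors. Id2 was lower in hyperinsulinemic kidneys on both of its probe sets and had the 1 probe set with an unadjusted p under 0.05 among the 41 tested. Its probe set 1375532_at gave 154.7, 194, 140, 153.4 and 127.9 on hyperinsulinemic arrays, against 184.8, 217.3, 196.6, 207.4 and 161.7 on normal arrays. Hyperinsulinemic replicate 7 lay among the normal arrays and normal replicate 5 close to the hyperinsulinemic ones. The difference was -0.31 ± 0.10 (limma, unadjusted p = 0.0103, adjusted p = 0.870), and leaving out each array in turn gave values from -0.39 to -0.25. Without hyperinsulinemic replicates 6 and 10 together, the arrays that stood apart, it was -0.24 (limma, unadjusted p = 0.0593, adjusted p = 0.704).

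The other Id2 probe set (1368870_at) read 1051.8, 874.5, 897.6, 909.2 and 1019.2 on hyperinsulinemic arrays, against 960.2, 1048.5, 1087, 1127.1 and 1006.8 on normal arrays. Replicates 7, 8 and 9 lay below all normal arrays and replicates 6 and 10 among them. Replicate 7 was thus the lowest of its group here and the highest on the first probe set. The difference was -0.14 ± 0.07 (limma, unadjusted p = 0.0532, adjusted p = 0.931). Without replicates 6 and 10 it was -0.22 (limma, unadjusted p = 0.00325, adjusted p = 0.452), so leaving them out enlarged the difference on this probe set and reduced it on the other.

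Id3 stood at 2427, 1995.2, 2153.3, 2271.7 and 2426.9 on hyperinsulinemic arrays, against 1892.7, 2340, 2040.5, 2494 and 2338.2 on normal arrays. The groups overlapped almost wholly, with a difference of 0.02 ± 0.08 (limma, adjusted p = 0.988). Id1 averaged 1222 ± 71.8 in hyperinsulinemic and 1281 ± 158 in normal kidneys, and Id4 101 ± 8.85 and 98.3 ± 11.5 in the same order. Thus 3 of 5 tested Id probe sets were lower and 2 higher, with a median of -0.06.

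Across the 10 arrays no relation between the signals of Id genes passed adjustment. Pearson's r of log2 signals was 0.66 for Id3 and Id4 (permutation p = 0.0409, adjusted 0.138; Spearman's rho 0.68, permutation p = 0.0350, adjusted 0.109). For Id1 and Id3 it was 0.64 (permutation p = 0.0461, adjusted 0.138; rho 0.64, permutation p = 0.0545, adjusted 0.109). Without the 2 arrays farthest from the median of the first gene, r was 0.69 and 0.61. Adjustment was by Benjamini-Hochberg over 6 pairs with 100000 resamples each, and each pair of values shares an array and its scaling. Within the groups of 5 arrays, too few to test, r was 0.17 on hyperinsulinemic and 0.93 on normal arrays for Id3 and Id4. For Id1 and Id3 it was 0.41 on hyperinsulinemic and 0.81 on normal arrays. The other 4 pairs had r from 0.20 to 0.52. The highest of these was for Id2 and Id3 (permutation p = 0.123, adjusted 0.247; rho 0.64, permutation p = 0.0546, adjusted 0.109). Its r was 0.91 on hyperinsulinemic and 0.60 on normal arrays, the only 1 of the 6 pairs with the higher r on hyperinsulinemic arrays.

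**Figure D4:**
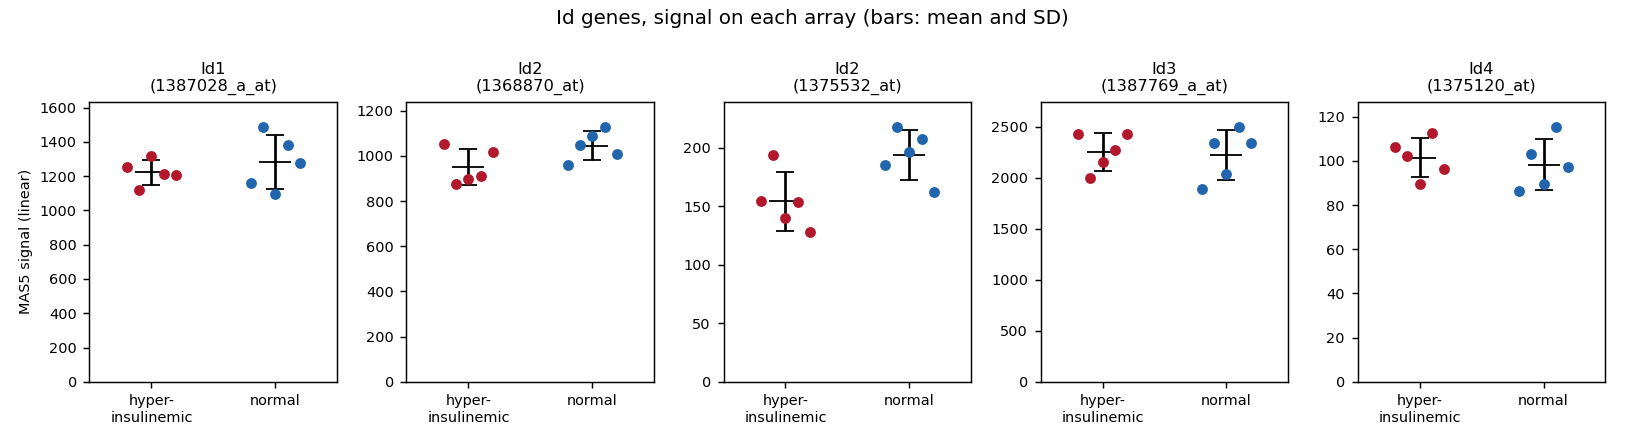
MAS5 signal (vertical axis, linear, from 0) on each array for the 5 tested Id probe sets, hyperinsulinemic left and normal right; points are arrays, bars the mean and SD of 5. Id2 is lower on average on both probe sets with overlapping groups, and Id1, Id3 and Id4 overlap throughout.

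Other genes of these pathways were taken from a list of 68 regulators and targets, of which 44 were on the array and 35 were tested. Of the 35, 20 were lower and 15 higher, with a median of -0.01, and 0 passed in limma after adjustment over all probe sets. At an unadjusted p under 0.05, 2 were lower and 1 higher, against 2.93% lower and 2.44% higher over all probe sets tested. The lower ones were the TGF-beta binding proteoglycan Dcn, at 1632 ± 119 in hyperinsulinemic and 1803 ± 44.5 in normal kidneys, and the collagen gene Col1a2, at 2232 ± 126 and 2457 ± 188 in the same order (limma, adjusted p = 0.907 and 0.918). Tab1, an adaptor of the TGF-beta activated kinase, was the higher one, at 448 ± 16.1 in hyperinsulinemic and 406 ± 19.4 in normal kidneys (limma, adjusted p = 0.918).

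No marker list passed adjustment. Values of the stroma and loop and distal tubule lists, the nearest to it, and of the endothelial and liver lists stand beside the Id2 and Dcn results. Of 10 stroma markers tested, Dcn among them, 8 were lower in the hyperinsulinemic group and 0 passed adjustment. At an unadjusted p under 0.05 in limma, 4 were lower and 0 higher, against 2.93% lower and 2.44% higher over all probe sets tested. These markers, like those of the other lists, were chosen with earlier results of these data known. Their counts and permutation p-values are therefore no independent test. The proteoglycan Lum differed most, by -0.63 ± 0.11 (limma, adjusted p = 0.132). Their summed signal ran from 11139 to 12465 on hyperinsulinemic and from 12323 to 13671 on normal arrays (exact permutation p = 0.0317, adjusted 0.218 over 11 marker lists). The 4 loop and distal tubule markers summed to 1892 to 2223 on hyperinsulinemic and 2145 to 2389 on normal arrays (exact permutation p = 0.0397, adjusted 0.218). The endothelial markers summed to 1678 to 2089 on hyperinsulinemic and 1882 to 2085 on normal arrays (exact permutation p = 0.786). All 5 liver markers tested were higher, and the 7 on the array had sums of 536 to 4423 on hyperinsulinemic and 367 to 1753 on normal arrays (exact permutation p = 0.214). Fgg reached the filter on 5 arrays and Alb and Ttr on 6, with normal replicate 4 the only normal array among them. The filter thus let these genes in mainly through the hyperinsulinemic group, and the count of 5 was partly fixed by it. The other 7 lists had exact permutation p-values of 0.103 or more. Among them, 2 of the 4 collecting duct markers were higher at an unadjusted p under 0.05 in limma and 0 lower. Of the 5 smooth muscle and mesangium markers tested, 1 was lower and 1 higher at that threshold. The part of these cell types in the Id2 values was not tested.

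Single arrays stood at the extremes for many members. Hyperinsulinemic replicate 10 had the lowest signal of all 10 arrays for 9 of the 41 tested probe sets and the highest for 1, and normal replicate 1 the lowest for 8 and the highest for 0. Normal replicate 3 was highest for 9. The median deviation of the members from their own mean ran from -0.03 to 0.02 on hyperinsulinemic and from -0.04 to 0.04 on normal arrays (exact permutation p = 0.556).

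**Figure D5:**
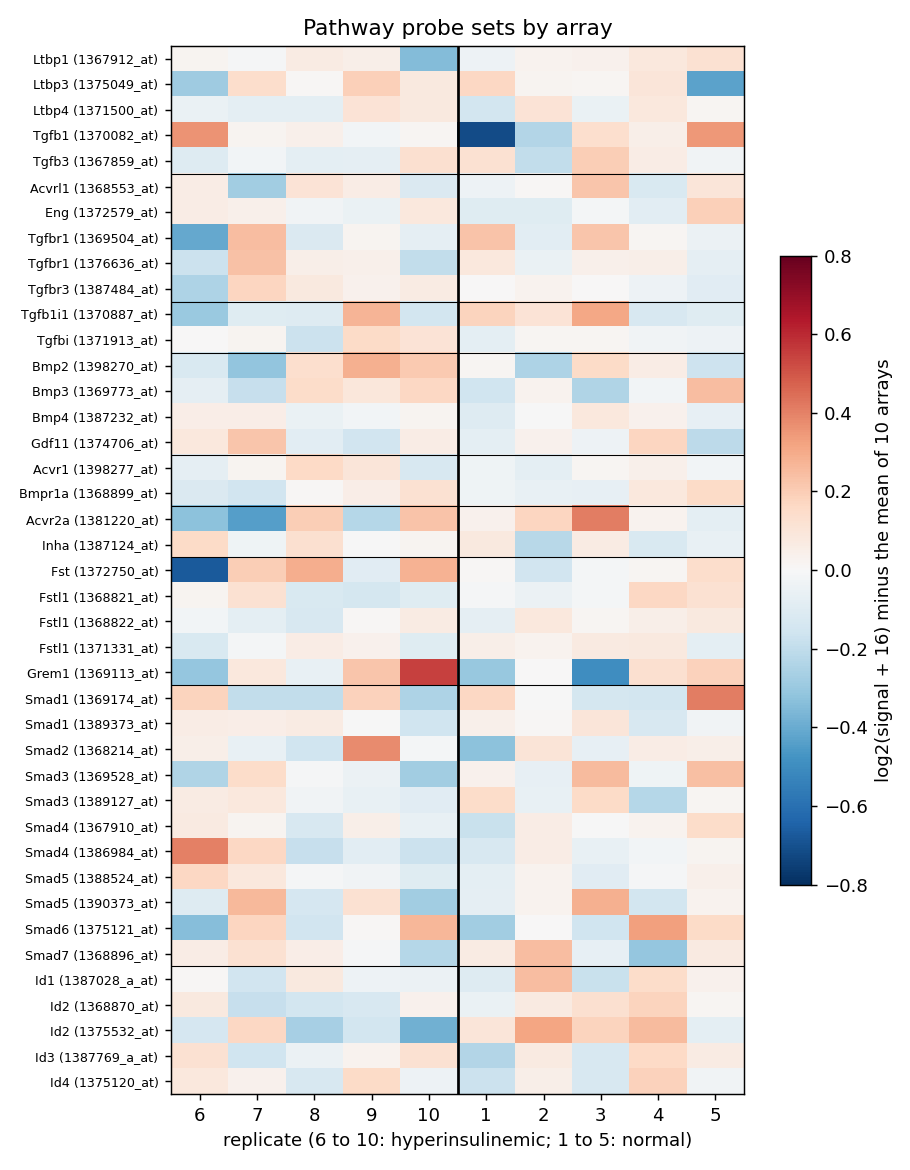
Heat map of log2(signal + 16) minus its mean over the 10 arrays (colour) for the 41 tested pathway probe sets (rows, grouped by role with thin lines) on hyperinsulinemic arrays 6 to 10 (left) and normal arrays 1 to 5 (right). Strong colours sit in single cells, such as Tgfb1 at 45.4 on normal replicate 1 and Fst at 65.5 on hyperinsulinemic replicate 6, and no row is of 1 colour across a group and of the other across the other group.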

How the data were processed

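Total RNA of 10 fetal kidney samples was measured on 1-colour Affymetrix rat arrays. The deposited table holds a linear intensity for each probe set on each array, made by the authors with MAS5, per the submitters' processing notes; version and settings are not given in the sources used here. No further scaling was applied, since the arrays shared a trimmed mean near 250.04, and the number of arrays limits the precision.

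Groups come from the sample titles. Symbols come from the platform annotation (12789 probe sets with 1 symbol, 312 with several, 2822 unnamed); 57 control probe sets were dropped. Testing required a signal that reached the 40th percentile of its array on at least 5 arrays, which left 9601. Groups were compared on log2(signal + 16) with limma 3.58.1 in R 4.3.3 (lmFit; eBayes, trend on intensity). P-values are two-sided, with Benjamini-Hochberg adjustment over all 9601 and a threshold of 0.05. Exact permutation tests, two-sided, were used for single values per array; their smallest p for 5 against 5 is 0.00794. The labels do not say that samples came from separate litters, so p-values reflect the spread among these 10 samples and no more, and that spread may be technical.

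Members and lists were chosen with earlier results of these data known, and 1 ligand gene is not reported here. Values on every array are given for members with an unadjusted p under 0.05 or no overlap, for the highest mean signal in each role, and, chosen after their values were seen, for dim members with an unadjusted p under 0.05 without the filter and the second Id2 probe set. The nephron progenitor markers were not analysed here. Plots used matplotlib 3.10.9 under Python 3.11.15.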

Additional observations from a re-analysis of the deposited data

Results flagged for a closer look

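In 8 of 136 groups of 5 arrays, 1 array lay far from the others by Dixon's test, which chance alone flags in about 1 of 20 groups. In the hyperinsulinemic group, replicate 10 was low for Ltbp1 (251.5, the others 321.2 to 339.7), for Tgfb2 on 1387172_a_at (11.1, the others 46.9 to 71.5) and for Nbl1 (53.4, the others 77.4 to 86.6). Replicate 6 was high for Tgfb1 (113.7, the others 83.5 to 88.1) and for Smad5 on 1369276_at (81.4, the others 75.7 to 76.5), and low for Inhbc (1, the others 20.5 to 24.9). In the normal group, replicate 5 was low for Ltbp3 (216, the others 299.9 to 334.1) and replicate 1 high for Inhba (103.9, the others 73.3 to 80.4). Tgfb2, Nbl1, Inhbc, Inhba and this Smad5 probe set were below the signal filter. Hyperinsulinemic replicate 6 was also the highest array on the first principal component, and replicate 10 the lowest on the second. The opposite ends were held by normal replicate 1 and hyperinsulinemic replicate 7.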

How the results depend on the processing

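No pathway member passed adjustment under any alternative run: other normalizations, pseudocounts of 1 and 32, no filter or one at the array median, other variance models, the Gapdh ratio as a covariate and fewer arrays. The smallest adjusted p among 14 named members was 0.244, for Bmp6 without hyperinsulinemic replicates 6 and 10, a setting added after the data were seen. The members' median difference stayed between -0.02 and 0.02 and the share that was lower between 46.3% and 60.0%, over all alternatives. The number of members with an unadjusted p under 0.05 was 1, and became 2 with quantile normalization, array weights or the Gapdh covariate, 4 without a filter, 3 without the 2 arrays with the most Alb, 0 with the brightest probe set of each gene, and 1 to 3 when each array was left out (3 without hyperinsulinemic replicate 10; 2 without replicates 6, 8 or 9 or normal replicate 1). Over all probe sets the count past adjustment was 1 and became 2 with arrays shifted to a common median, with the stricter filter or without replicates 6 and 10, 5 without a filter, 4 with array weights, 0 without the intensity trend or without the 2 Alb arrays, and 0 to 4 when each array was left out. The differences of the Gapdh ratio (0.013) became -0.031 without replicates 6 and 10 and ran from -0.0094 to 0.030 with each array left out.

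Of 299 alternative values for the 14 members, 25 changed sign, all of members near 0. Bmp4 became -4.35e-05 with array weights (-0.000839 to 0.045 with each array left out). Bmpr1a became 0.0081 without the Alb arrays and 0.041 as a difference of medians (-0.068 to 0.000458). Id3 became -0.048 without replicates 6 and 10 and -0.041 as a difference of medians (-0.031 to 0.068). Ltbp4 became 0.027 without the Alb arrays (-0.043 to 0.022). Tgfbr1 became 0.011 with array weights, 0.0074 with the Gapdh covariate, 0.032 without the Alb arrays and 0.099 without replicates 6 and 10 (-0.078 to 0.030). The causes were not tested. The fold of the dim Bmp6 probe set depended on the pseudocount, at -1.07 with 1 and -0.39 with 32. No paired analysis was possible because the groups share no replicate number.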
